A study of Homo sapiens with 4 samples.

Results

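The short arm of chromosome 5 was followed in ATAC-seq peak lists of BCPAP cells, an established line from a human papillary thyroid cancer. The arm was bounded at 0 to 46.4 Mb of the hg19 build, and it held 7854 of 373425 union regions on chromosomes 1 to 22 and X. A union region is a stretch where peaks of the 4 lists share at least 1 bp. The long arm, from 49.4 to 180.9 Mb, held 25498 regions and served as the reference on the same chromosome. The arm was chosen on peak density and on the read coverage at peak summits, so its level of both measures is a description and carries no test. Of the 4 libraries, 2 were from untreated cells (U1 and U2, replicates 1 and 2) and 2 from cells given 5-azacytidine (T1 and T2, replicates 1 and 2), all of the same line. The labels give neither dose nor duration of treatment, nor whether replicates were separate cultures. The p-values below therefore measure only the spread between these libraries, which may be technical. At the edge of the rule, the last short-arm region lay at chr5:46371410-46371909, with a coverage of 5 in T1 and no peak in the other lists. The first long-arm region lay at chr5:49405525-49406070, with a coverage of 7 in U2 and 4 in T1.

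In ATAC-seq a transposase cuts exposed DNA, so that promoters, enhancers and insulators appear as sharp peaks of coverage over a low level of stray reads. A chromosome arm present in extra copies adds DNA to the library along its whole length, which adds reads both at its peaks and between them. The short arm of chromosome 5 is a frequent site of copy-number gain in carcinomas and carries TERT, the gene of the catalytic subunit of telomerase. 5-Azacytidine is built into nucleic acids in place of cytidine and traps DNA methyltransferases, so that methylation is diluted as cells divide. Copy number was not measured in these libraries. Base sequence and genes on hg19 were not used here, so regions are given by position.

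Across libraries, depth could be compared only through the uniform background coverage behind the authors' fold values, which was 0.875 to 0.913. T1 stood apart from the other 3 lists in coverage. In regions of all 4 lists on all chromosomes its median summit coverage was 11, against 16 to 23 in the other libraries. Of its peaks, 45.0% had a summit coverage of 6 or less, against 23.4% to 29.9% in the others. Results that rest on this library are therefore given library by library.

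The short arm was not the denser arm of chromosome 5. It held 83.1 and 89.1 peaks per Mb in U1 and U2, and 123 and 104 in T1 and T2. The long arm held 103 and 106 peaks per Mb in U1 and U2, and 143 and 118 in T1 and T2. The ratio of short to long arm was 0.804 and 0.841 in U1 and U2, and 0.860 and 0.877 in T1 and T2. All 4 ratios lay below 1, so the density of peaks did not set the short arm above the long arm in any library.

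Both arms were denser than the rest of the genome. Peaks were counted per 1 Mb window holding at least 1 region and divided by the same count over the chromosomes other than 5. For the short arm the ratio was 1.08 and 1.15 in U1 and U2, and 1.39 and 1.23 in T1 and T2. For the long arm it was 1.36 and 1.38 untreated, and 1.63 and 1.41 treated. Among 24 units, the arms of chromosome 5 and 22 other chromosomes, the short arm came 7th in union regions per window, with 167 against a median of 125. The long arm came 5th with 193, chromosome 20 was highest with 290 and chromosome X lowest with 50.2. The genes and base composition of these chromosomes were not compared, so their part in the order was not tested.

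Summit coverage gave the same order of the arms. In the 1957 short-arm regions with a peak in every list, the median coverage was 24 and 17 in U1 and U2, and 12 and 18 in T1 and T2. In the 6573 such regions of the long arm it was 25 and 19 untreated, and 13 and 18 treated. On the log2 scale the mean coverage of the short arm minus that of the long arm was −0.082 in U1, −0.099 in U2, −0.051 in T1 and −0.029 in T2. Against the chromosomes other than 5 it was higher in each library, by 0.057 and 0.025 untreated and by 0.16 and 0.17 treated. The long arm was higher by 0.14 and 0.12 untreated and by 0.21 and 0.20 treated. Mean log2 coverage was highest of the 24 units on the long arm in U1 and in both treated libraries. The short arm came 6th and 8th in the untreated libraries and 3rd and 2nd in T1 and T2.

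**Figure D1:**
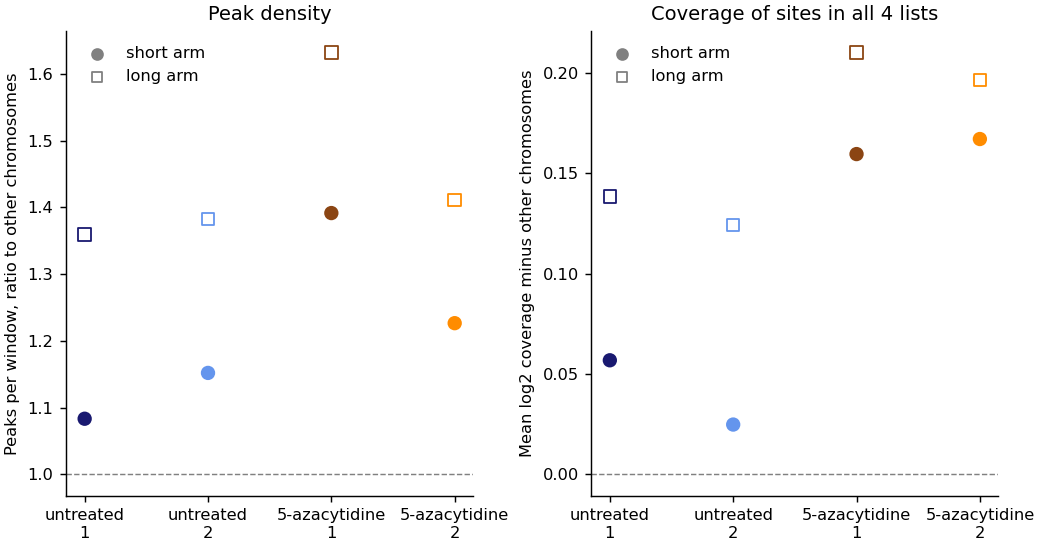
Left, peaks per 1 Mb window as a ratio to the chromosomes other than 5; right, mean log2 summit coverage of regions in all 4 lists minus that of the chromosomes other than 5. Each point is 1 library, filled circles are the short arm and open squares the long arm, and in each library the square lies above the circle; the axes do not start at 0 and the dashed line marks equality.

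The short arm was the less dense arm in every class of peak strength compared. Peaks with a coverage of 4 to 6, the weakest listed, were 0.823 and 0.881 times as dense on the short as on the long arm in the untreated libraries, and 0.873 and 0.903 times in the treated libraries. Peaks with a coverage of 50 or more were 0.696 and 0.700 times as dense untreated, and 0.669 and 0.748 times treated. In each library the ratio was thus lower for the strongest than for the weakest class.

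Density changed sharply along the arm. The 46 full windows of 1 Mb held 42 to 486 regions, with a median of 134, against 173 in 130 windows of the long arm and 98 in 2688 windows of other chromosomes. The fullest windows were 14 to 15 Mb with 486 regions, 1 to 2 Mb with 480, and 0 to 1 Mb with 448. The emptiest were 26 to 27 Mb with 42 regions, 45 to 46 Mb with 44, and 29 to 30 Mb with 50. No full window of the short arm held fewer than 30 regions, whereas 7 windows of the long arm and 343 of the other chromosomes did. This floor rested partly on T1. From 2 to 3 Mb, 48 of 62 regions were of T1 alone, and U1, U2 and T2 had 4, 11 and 2 peaks. From 3 to 4 Mb, 42 of 51 were of T1 alone, and U1, U2 and T2 had 5, 6 and 9 peaks. In each of U1, U2 and T2 these windows held fewer peaks than the 3 emptiest named above.

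Grouping neighbouring windows after they had been seen gave 6 stretches. The tip, from 0 to 2 Mb, held 464 regions per Mb, but 16.8% of them were in all 4 lists. From 2 to 5 Mb there were 56.0 regions per Mb, 7.14% of them in all 4 lists. The stretches from 5 to 18 Mb and from 31 to 44 Mb held 220 and 208 regions per Mb, with 26.7% and 27.4% in all 4 lists. Between them, from 18 to 31 Mb, lay 13 Mb with 83.5 regions per Mb. Without the windows of this middle stretch, a setting chosen after the data were seen, the mean log2 ratio of short to long arm density was 0.035 in place of −0.24. The untreated mean was then −0.024 and the treated mean 0.093, while the long arm kept its own sparse windows. The last stretch, from 44 to 46 Mb, held 50.0 regions per Mb. In textbook maps the middle of this arm is a gene-poor segment with a scattered run of cadherin genes, which encode cell adhesion proteins.

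**Figure D2:**
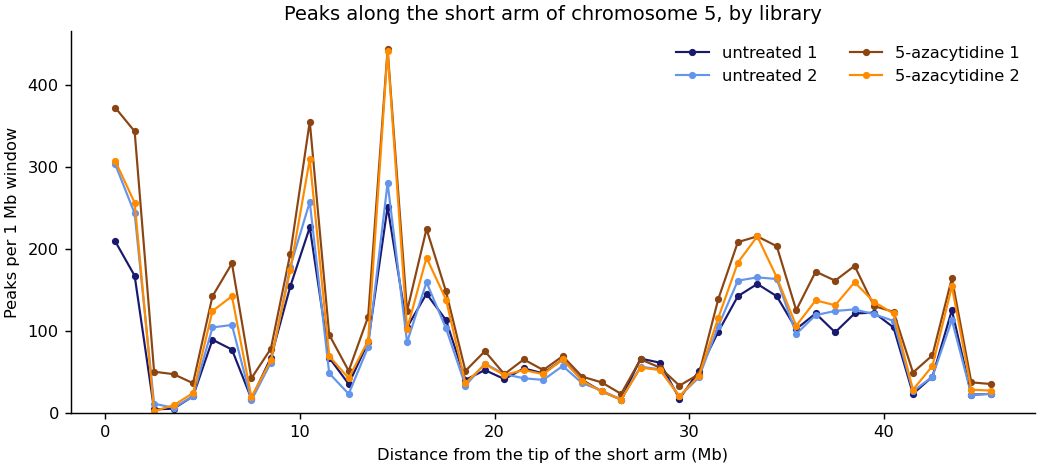
Peaks in each full 1 Mb window of the short arm, by distance from its tip, with 1 line for each library. Counts are high in the first 2 Mb, at 10 to 11 Mb and at 14 to 15 Mb, and stay low in every library from 18 to 31 Mb; at 2 to 4 Mb only T1 keeps a count above 40.

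Coverage at shared sites followed another course than density. The values here are mean log2 coverage with each library centred on its own mean over all shared regions. At the dense tip, from 0 to 2 Mb, sites were low in U1 and U2 (−0.41 and −0.25) and nearer to the mean in T1 and T2 (−0.035 and −0.12). From 31 to 44 Mb they were high in every library, at 0.22 and 0.16 untreated and 0.22 and 0.24 treated. From 5 to 18 Mb they were at 0.018 and −0.011 untreated and at 0.18 in each treated library. The tip was thus the densest stretch and had the lowest coverage of these 3 at shared sites.

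Stray peaks showed a different side of the arm. Sparse windows, those with at most 10 regions present in 3 or more lists, were examined after the windows had been seen. The short arm had 4 of them, the long arm 8 and the other chromosomes 334. From 2 to 3 Mb, regions listed in 1 library alone numbered 2 and 10 in U1 and U2, and 48 and 0 in T1 and T2. From 3 to 4 Mb they numbered 0 and 2 untreated, and 42 and 4 treated. From 7 to 8 Mb they numbered 2 and 2 untreated, and 31 and 5 treated. From 26 to 27 Mb they numbered 4 and 8 untreated, and 13 and 5 treated. T1 was the highest library in each of the 4 windows.

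On the long arm the regions of T1 alone numbered 0 to 19 per sparse window, with a median of 13.5, against 36.5 on the short arm and 2 on the other chromosomes. The medians of the other 3 libraries were 2 to 5 on the short arm, 0 to 1.5 on the long arm and 1 on the other chromosomes. By this measure the order of the arms was the reverse of that by all peaks, although it rests on 4 windows and mainly on 1 library. With at most 20 regions as the limit, 10 windows of the short arm had a median of 21.0, against 15.5 in 12 windows of the long arm and 3 elsewhere. These peaks were weak: of 134 in the 4 short-arm windows, 114 had a coverage of 6 or less and the highest had 12. Of the other chromosomes, chromosome 20 had the highest median, 27, over 4 sparse windows. Whether extra copies of the arm, or of chromosome 5, contribute to these counts was not tested.

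**Figure D3:**
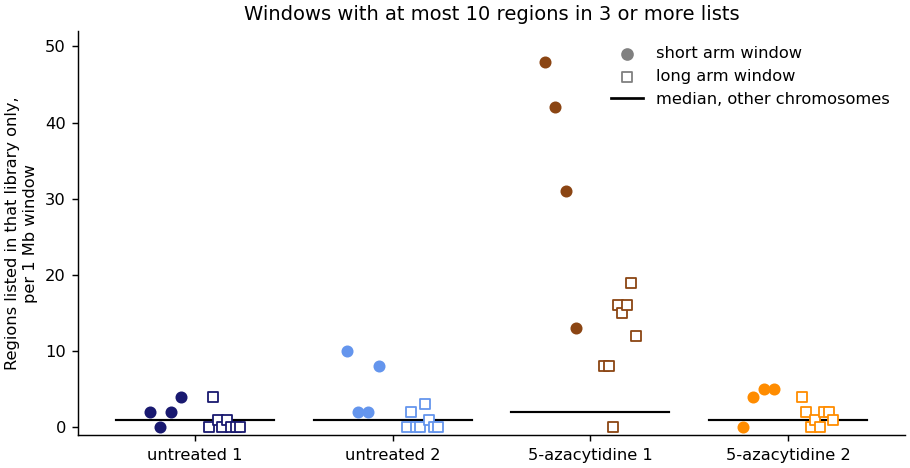
Regions listed in 1 library only, per sparse 1 Mb window, with 1 point for each window of the short arm (filled circles) and long arm (open squares). The black lines are medians over 334 sparse windows of other chromosomes; T1 reaches 31 to 48 in 3 of 4 short-arm windows, while its long-arm windows hold at most 19.

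The next comparison asked whether the arm differs between treated and untreated cells. Peak density on the short arm was 114 ± 13.7 per Mb in treated and 86.1 ± 4.22 per Mb in untreated cells (SD, n = 2 each), a log2 difference of 0.39. Neither treated library overlapped with the untreated ones. By an exact two-sided permutation test p was 0.333, which is the lowest p that a design of 2 against 2 can reach. With the same number of peaks taken from each list the log2 difference was 0.20. Among peaks with a −log10 q of at least 5 it was −0.037. With a coverage of at least 10 it was −0.10. T1 had the lowest coverage, so a fixed cut-off removes a larger share of its peaks. The turn therefore cannot show whether the direction rests on weak peaks. At coverages of 10 to 19 the arm held 17.5 and 18.4 peaks per Mb untreated, and 20.6 and 24.4 treated. At 20 to 49 T1 was lowest with 12.5, and T2 lay between U2 and U1. At 50 or more the arm held 9.94 and 6.88 untreated, and 1.66 and 5.41 treated. Of the 24 units 18 had both treated libraries above both untreated ones in peaks per window (75.0%).

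Relative to the chromosomes other than 5 the separation was less common. The short arm took 1.74% and 1.85% of the peaks of U1 and U2, and 2.20% and 1.97% of those of T1 and T2. Its density ratio to the other chromosomes had a mean of 1.31 ± 0.117 treated and 1.12 ± 0.0485 untreated (SD, n = 2 each; exact two-sided permutation p = 0.333). The groups did not overlap. The same held for 3 of the 24 units (12.5%), both arms of chromosome 5 and chromosome 14. Both arms moved together, and their ratio differed less between groups: the log2 ratio of short to long arm was −0.28 ± 0.046 untreated and −0.20 ± 0.020 treated (SD, n = 2 each; exact two-sided permutation p = 0.333).

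Coverage at shared sites behaved alike. On the log2 scale it was lower in the treated libraries over all chromosomes, by a mean difference of −0.52. On the short arm the difference was −0.40, and there the groups overlapped, since T2 lay above U2 (exact two-sided permutation p = 0.667). Relative to the chromosomes other than 5, the mean coverage of the short arm was 0.12 higher in treated than in untreated cells, and no treated library overlapped with an untreated one (exact two-sided permutation p = 0.333). Of the 24 units 6 were separated in this way (25.0%). Relative to the long arm the difference was 0.050, with exact two-sided permutation p = 0.333. With all peaks of each list in place of shared regions it was 0.018 and the groups overlapped (exact two-sided permutation p = 1.0). With medians in place of means the groups overlapped as well (exact two-sided permutation p = 0.667).

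Site by site, with each library centred on its mean over all shared regions, 584 of the 1957 shared regions of the short arm (29.8%) had both treated values above both untreated values. The share on the long arm was 26.2%, and the background over all 105414 shared regions was 23.0%. The reverse order held for 421 regions (21.5%), against 24.1% on the long arm and a background of 27.3%. The median centred difference was 0.085 on the short arm, 0.021 on the long arm and −0.037 over all shared regions. These differences are small beside the spread of sites on the short arm, whose 10th and 90th percentiles were −0.62 and 0.90.

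Fewer regions of the short arm were shared by every library. The share in all 4 lists was 24.9% (95% Wilson interval 24.0 to 25.9, counting error only), against 25.8% on the long arm and a background of 28.2%. It was the 23rd of the 24 units, above chromosome 20 alone. Regions of T1 alone made up 25.2% of the short arm and 25.0% of the long arm, against a background of 19.3%. The share was above that of both arms on chromosome 20 alone, at 26.1%. Chromosome 5 as a whole, rather than 1 of its arms, thus stood high in peaks of a single treated library.

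Regions with peaks in T1 and T2 but not in U1 or U2, called gained, numbered 411 on the short arm. They made up 5.23% of its regions (95% Wilson interval 4.76 to 5.75), against 4.42% on the long arm and a background of 4.21%. Lost regions, the reverse, numbered 201 or 2.56% (2.23 to 2.93), against 2.58% on the long arm and a background of 3.35%. There were 2.04 gained for each lost region on the short arm, 1.71 on the long arm and 1.25 over all chromosomes. The surplus of gained over lost regions on the arm itself changed with the filter. With equal numbers of peaks per list, 288 regions of the short arm were gained and 234 lost. The order turned among peaks with a −log10 q of 5 or more, where 95 were gained and 147 lost, and among peaks with a coverage of 10 or more, where 64 were gained and 149 lost. Under these filters a region also counts as lost where its treated peaks fall below the cut-off. Log2 coverage at shared sites was lower in the treated libraries, by −0.52 over all chromosomes. The turn therefore cannot show whether the surplus rests on weak peaks. Strong regions with no listed peak at all in the other lists numbered 17 gained and 15 lost. In the full lists the ratio on the short arm exceeded that over all chromosomes by 0.70 on the log2 scale. For 118 of the 411 gained regions (28.7%) and 39 of the 201 lost regions (19.4%), the peak numbers of a list counted as without a peak skip a value there, and what the skipped peak was is unknown. Over all chromosomes the same held for 24.4% of gained and 26.1% of lost regions. Without such regions 293 gained and 162 lost were left on the short arm, and the log2 excess over all chromosomes was 0.49. It came 4th of the 24 units in the gained share and 21st in the lost share.

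Regions shared by 1 untreated and 1 treated library alone were uneven as well. Those of U2 and T1 made up 2.34% of the short arm and 2.32% of the long arm, against a background of 1.97%. Those of U1 and T2 made up 1.76% of the short arm and 2.02% of the long arm, against a background of 2.42%. Both arms were thus above the background in 1 of these classes and below it in the other, although neither class separates the groups. Gained and lost regions were mostly weak, with a median coverage of 6 in T1 and in T2 for gained regions and 7 in U1 and in U2 for lost regions. With a coverage of 10 or more asked of both lists, 17 regions were gained (0.216%, against a background of 0.139%) and 15 lost (0.191%, against a background of 0.260%). The classes of 1 untreated and 1 treated library held 0 to 6 regions of that strength.

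Gained regions were bunched along the arm. They outnumbered lost regions in 23 of 46 full windows, and the reverse held in 17. The 5 windows with most gained regions held 181 of the 411. They were also rich in regions of any kind, with 294 to 486 each against a median of 134. Of their regions 7.08% to 11.1% were gained, against 5.23% on the whole arm, although the windows were picked by the number gained. The same counts over all windows of the series are not given here. In the sparse middle from 18 to 31 Mb the order turned, with 23 gained and 57 lost regions. These were 2.12% and 5.25% of its regions, against a background of 4.21% and 3.35%. Lost regions were also the more numerous on chromosomes X and 8, which held the fewest regions per window. There were 0.672 and 0.576 gained for each lost region there. Peaks were more numerous in both treated libraries than in both untreated libraries in 29 of 46 windows, against a background of 35.0% of all 2867 windows. The opposite was seen in 0 windows of the short arm, against a background of 9.94%. Across the 46 windows, Spearman's rho between the number of regions and the gained-to-lost ratio was 0.65. It was 0.48 across 130 windows of the long arm, so the relation was not particular to the short arm. The windows share the same 4 libraries, so this is a description.

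**Figure D4:**
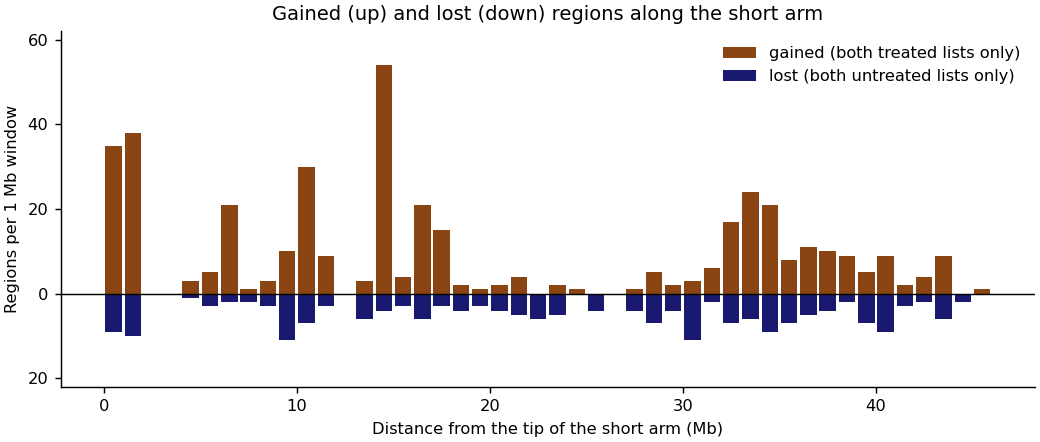
Gained regions (bars upward) and lost regions (bars downward) in each full 1 Mb window of the short arm, by distance from its tip. The highest bar, 54 gained regions, is at 14 to 15 Mb, where 4 regions were lost; from 18 to 31 Mb lost regions are the more numerous.

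The window from 14 to 15 Mb held 54 gained and 4 lost regions, the third highest number gained of all 2867 windows. It held 251 and 280 peaks in U1 and U2, and 443 and 441 in T1 and T2. Here both treated libraries were high by nearly the same amount, unlike in the sparse windows. Gained regions were 11.1% of its regions, the 15th highest share of 1459 windows with at least 100 regions, and the classes of 1 untreated and 1 treated library held 4 to 12. The gained regions ran from 14012930 to 14850986, with median coverages of 6 and 7 in T1 and T2. Sites present in all 4 lists differed in the same direction: of 140 such regions, 70 had both centred treated values above both untreated values and 20 the reverse. Over all 105414 shared regions the background was 23.0% for the first order and 27.3% for the reverse. In the 140 regions the mean centred log2 coverage was −0.24 and −0.13 untreated, and 0.25 and 0.27 treated. The window was singled out by the number of its regions and of gained regions, so these values are a description.

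The tip was the next in number, with 38 gained and 10 lost regions from 1 to 2 Mb and 35 and 9 from 0 to 1 Mb. There the peaks numbered 167 and 243 in U1 and U2, and 343 and 256 in T1 and T2, from 1 to 2 Mb. From 0 to 1 Mb they numbered 209 and 303 untreated, and 372 and 307 treated. T2 was thus only slightly above U2 in both windows. Of the strong gained regions, 4 of 17 lay in the first Mb.

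The gained regions of the short arm that ranked highest by the authors' p-values were spread from its tip to 17 Mb. At chr5:891170-891697 the summit coverage was 21 and 33 in T1 and T2, with no peak listed untreated. Another region ended 16 bp from it. At chr5:14428736-14429259, inside the window described above, the coverage was 13 and 22. At chr5:303394-303909 it was 14 and 17, but the peak numbers of U1 skip a value there, and what the skipped peak was is unknown. At chr5:8396825-8397333 it was 12 and 17, and at chr5:16736213-16736748 it was 17 in both treated libraries. Other regions lay 142 and 35 bp from these places. No peak was listed at the 5 named regions in the untreated libraries. Which lists had peaks in the close neighbours is not given here, so a shifted summit of the same site cannot be told apart.

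The lost regions that ranked highest had percentiles by p-value of 55.4 to 66.9 in their worse library, and the gained ones 76.1 to 91.4. The former are ranks in untreated lists and the latter in treated lists. Coverage differs between these lists, so the percentiles do not compare the strength of the sites. The coverages of the lost and gained regions named here overlapped. Of these lost regions, 4 of 5 lay in the sparse middle of the arm. At chr5:22959091-22959600 the coverage was 21 and 15 in U1 and U2, with another region 43 bp away. At chr5:30968984-30969514 it was 22 and 13, with no other region within 6778 bp. At chr5:28254899-28255403 it was 20 and 12, and at chr5:19975880-19976383 it was 13 and 16. The remaining region, chr5:14723663-14724299, lay among the gained regions of the 14 to 15 Mb window and had a coverage of 16 and 13. Another region lay 77 bp from it. None of the 5 had a peak in a treated list, and no peak number was missing there. The lists with peaks in the close neighbours are not given here.

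The next 5 sites were taken only from regions with a peak in every list, as those ranking highest by p-value in their worst library. At chr5:33049376-33050356 the coverage was 217 and 197 in U1 and U2, and 128 and 186 in T1 and T2. At chr5:14189887-14190904 it was 215 and 164 untreated, and 126 and 184 treated. At chr5:43313349-43314130 it was 243 and 155 untreated, and 91 and 129 treated. At chr5:5665554-5666128 it was 198 and 181 untreated, and 85 and 126 treated. At chr5:37771706-37772224 it was 216 and 148 untreated, and 86 and 136 treated. T1 was the lowest library at each of these 5 sites. After centring, the treated mean was above the untreated mean at the first pair of sites, by 0.10 and 0.22 on the log2 scale, while at the other 3 the difference was −0.32, −0.35 and −0.20.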

How the data were processed

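Per the submitters' processing notes, reads were handled with Trimmomatic, Bowtie2, Picard and MACS2 on hg19. For versions, settings and any shift of read ends the entry is: not given in the sources used here. The authors deposited 1 peak list for each of 4 libraries, with intervals of 500 bp. The deposited peak score, scaled to 1000000 per list, was not used. The deposited fold enrichment is a ratio of summit coverage to background coverage with 1 added to both. At least 99.99% of fold values were whole multiples of 1 step, and coverage was read from that step. The −log10 p and −log10 q values in the deposited lists served to rank and filter peaks.

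Peaks sharing 1 bp were merged, and windows of 1 Mb were assigned by region midpoints. Treated and untreated library values were set against each other in an exact permutation test (two-sided, 6 assignments), and no test was run for single regions. Shares carry 95% Wilson intervals. The ratio of gained to lost regions had 1 added to each count. Named regions were the 5 gained, 5 lost and 5 constant regions with the best rank by p-value in their worst library, and the 3 fullest and 3 emptiest windows. The arm, the members and the lists were chosen with earlier results of these data known. Merging and the reading of coverage were tested on simulated lists. The tools were matplotlib 3.10.9, scipy 1.17.1, statsmodels 0.14.6, pandas 2.3.3, numpy 2.4.6 and Python 3.11.15. No gene annotation on hg19 was used, and no sequence is printed.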

Additional observations from a re-analysis of the deposited data

How the results depend on the processing

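On the log2 scale, the treated minus untreated difference in short-arm peak density was 0.39 in the full lists. It turned to −0.037 at a −log10 q of at least 5 and to −0.10 at a coverage of at least 10, and it was 0.27 to 0.52 when 1 library was left out. The difference in the short to long arm density ratio, 0.079, was 0.047 without untreated replicate 1, 0.11 without untreated replicate 2 and 0.049 without the first and last 5 Mb. That in coverage, 0.050, was 0.018 with all peaks of each list (exact permutation p = 1.0), 0.028 without treated replicate 2, 0.074 without untreated replicate 1 and 0.033 without the first and last 5 Mb. Both kept their sign in every setting run, but with medians the groups overlapped in coverage (exact permutation p = 0.667). The mean log2 level of the short arm against its reference turned from −0.24 to 0.29 in density and from −0.065 to 0.10 in coverage with the chromosomes other than 5 as reference. The density level also turned, to 0.035, without the windows from 18 to 31 Mb, although the untreated mean stayed negative at −0.024. The log2 excess of the arm over all chromosomes in gained per lost region, 0.70, was 1.0 at the stricter q, where lost regions outnumbered gained ones on the arm itself (147 against 95), 0.83 at a coverage of at least 10 (149 against 64), 0.49 without regions with a missing peak number, 1.07 among strong regions and 0.37 to 0.91 with 1 library left out, lowest without untreated replicate 1. The share in all 4 lists, 24.9%, was 26.8% with equal numbers of peaks, 43.0% at the stricter q, 44.9% at a coverage of at least 10, 26.6% without the first and last 5 Mb, 26.9% with merging up to 150 bp and 28.7% to 36.2% with 1 library left out, which removes a condition by construction. The background share at these settings is not given, so these shares cannot be set against the 28.2% of the full lists. The setting with strong regions, that without regions with a missing peak number and those for the middle stretch and sparse windows were chosen after the data were seen.

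No label ties the replicate numbers to a batch. With the replicate block the 3 differences were 0.39, 0.079 and 0.050, each with exact permutation p = 0.5, the smallest that 2 pairs allow. Over 2867 windows the deviations of same-numbered libraries had a correlation of −0.40. The number of reads is unknown, so the depth behind a missing peak cannot be stated.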
